A study of Bos taurus with 2 samples.

Results

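Collagen chain genes encode the polypeptides from which collagens, the main structural proteins of connective tissue, are assembled. They were followed here in the mammary gland of Holstein dairy cows. Every gene whose symbol is COL, a number, A and a number, and nothing more, was taken, which gave 39 of the 27270 genes in the count tables. A further 5 chain genes of the family, COL19A1, COL21A1, COL22A1, COL24A1 and COL25A1, were not analysed here.

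Collagen chains wind around one another into helical molecules with different jobs. Fibrillar collagens form the tensile fibres of stroma and fibril-associated collagens sit on their surface, whereas type IV collagen builds the sheet of every basement membrane, including those under mammary epithelium and around vessels and fat cells. Other chains form beaded filaments, short-chain networks, anchoring fibrils, cell-surface proteins or proteoglycans at basement membranes, the last called multiplexins.

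The series holds 1 single-cell RNA library from the mammary gland of an adult cow, labelled as lactation, and 1 from a newborn. Both are Holstein, no treatment or genotype is given, and nothing in the labels names further animals. The tissue was cleared of white adipose tissue, digested with hyaluronidase and collagenases and strained, and the cells were captured with the 10x 3′ chemistry, version 3. With 1 library per stage, stage, animal and library cannot be told apart. There is no replicate check and no test of any difference between the stages, and every interval below is a 95% interval for counting error alone.

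The adult library held 15897 barcodes with 85388618 unique molecular identifiers (UMIs, each counting 1 captured RNA molecule) and the newborn library 13772 barcodes with 65597671. Barcodes with at least 300 genes and at most 20% mitochondrial UMIs were kept, 14691 and 13710. The study states 24472 cells against 28401 kept here. The libraries shared 57 barcode sequences, of which 1 adult and 36 newborn barcodes lay in the fibroblast gate. Barcodes were placed in a lineage by raw UMIs of markers that are not collagens, and a barcode that met the gates of 2 lineages entered none, which is how doublets were treated. This removed 1380 adult barcodes (9.39%) and 288 newborn barcodes (2.10%).

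The fibroblast gate asked for both DCN and LUM, small proteoglycans of stroma, with at least 3 UMIs together. It held 190 adult barcodes (1.29% of those kept) and 9637 newborn barcodes (70.3%). Markers of other cells were low in it: the 6 endothelial markers summed to 44.7 CPM (UMIs of a gene for every 1000000 UMIs of the gate) in the adult gate, with 2 of the 6 at 0, against 2902 CPM in adult lymphatic barcodes, and to 2.87 CPM in the newborn gate. Milk protein genes stood at 21162 CPM in adult and 0.304 CPM in newborn fibroblast barcodes, the 6 epithelial markers at 147.7 and 0.590 CPM (1 of 6 and 2 of 6 at 0), and mitochondrial genes at 43496 and 12242 CPM. Leaving milk and mitochondrial UMIs out of the denominator turned the direction of no chain compared below and left the same 5 chains past 4-fold. No newborn barcode met an epithelial gate, so epithelial collagens were read in the adult alone. Levels are CPM over the summed UMIs of a gate. A 3′ UMI comes from 1 end of a transcript, so values were not divided by length, and differences between chains also carry how well each 3′ end is annotated.

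Collagens made up a larger share of all RNA in the newborn library than in the adult one, 1.73% against 0.0357% of UMIs. Fibroblasts were far fewer in the adult, and within their gate the shares were closer: the chains took 1.34% of UMIs in the adult (1.32 to 1.37) and 1.83% in the newborn (1.83 to 1.84). When every barcode was thinned to 1000 UMIs, the collagen share per barcode had a lowest value of 0%, a median of 1.3% and a highest of 7.2% over 172 adult barcodes. The same values were 0%, 1.4% and 21.2% over 9428 newborn barcodes, so the barcodes of both libraries covered overlapping ranges.

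The adult library's collagen was spread over more cell types. Fibroblasts held 32.5% of its collagen UMIs and endothelial barcodes 31.7%, 29.9% in lymphatic barcodes alone. Another 24.6% lay in barcodes that met 2 gates. In the newborn library 84.9% of collagen UMIs lay in the fibroblast gate and 12.3% in barcodes that met no gate. COL2A1, COL4A4, COL9A3, COL10A1 and COL11A1 had no UMI in the adult library. COL9A1, COL23A1 and COL26A1 had none in the newborn library.

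**Figure D1:**
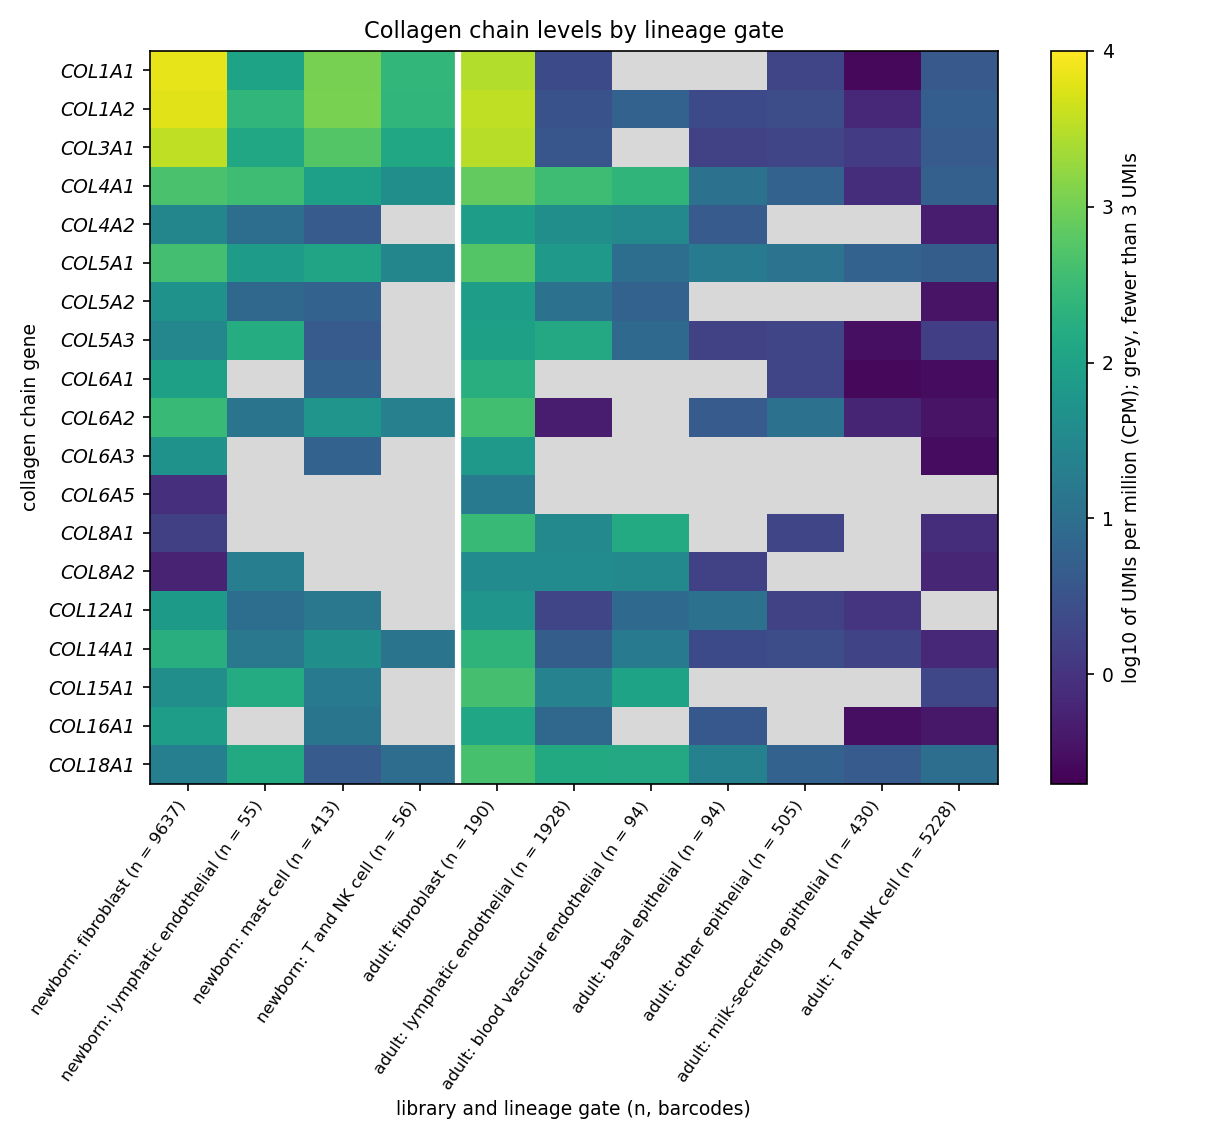
Level of the 19 chains described (vertical axis) in marker gates of both libraries (horizontal axis), coloured by the log10 of CPM, with grey for fewer than 3 UMIs. COL1A1, COL1A2 and COL3A1 are the strongest chains of both fibroblast gates, while adult lymphatic barcodes show COL4A1, COL5A3 and COL18A1 above COL1A1.

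In fibroblasts, 22 of the 39 chains were compared, those with at least 20 UMIs over both libraries and not at 0 in 1 library with a level under that library's floor in the other. None of them was at least 4-fold higher in the newborn, a level that 2.01% of all 11384 genes compared reached, and 5 exceeded their newborn level at least 4-fold in adult barcodes, where the background was 11.1%. Those 5 were COL6A5, COL8A1, COL8A2, COL15A1 and COL18A1. At 2-fold by UMI totals, 2 chains were higher in the newborn (background 7.63%), 8 in the adult (background 38.5%), and 12 lay between.

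The comparison is lopsided in depth: the adult gate held 737836 UMIs and the newborn gate 52576982, so that 1 adult UMI is worth 1.36 CPM. A chain with few UMIs could therefore pass only on the adult side. Among genes with at least 50 CPM in the higher library, 3 of 17 chains (COL8A1, COL15A1 and COL18A1) passed 4-fold toward the adult, against 6.59% of 3124 genes. The direction of small differences rests on the scaling. Relative to UMI totals, 6 chains lay toward the newborn and 16 toward the adult. Relative to the median ratio over all genes, which lies 1.63-fold toward the adult, the split was 11 and 11. The counts past 2-fold were 2 toward the newborn and 8 toward the adult by UMI totals. Under the median-ratio scaling they were 5 and 5, for which no background over all genes is given. The median log2 ratio of newborn over adult was −0.63 for the chains and −0.71 for all genes.

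**Figure D2:**
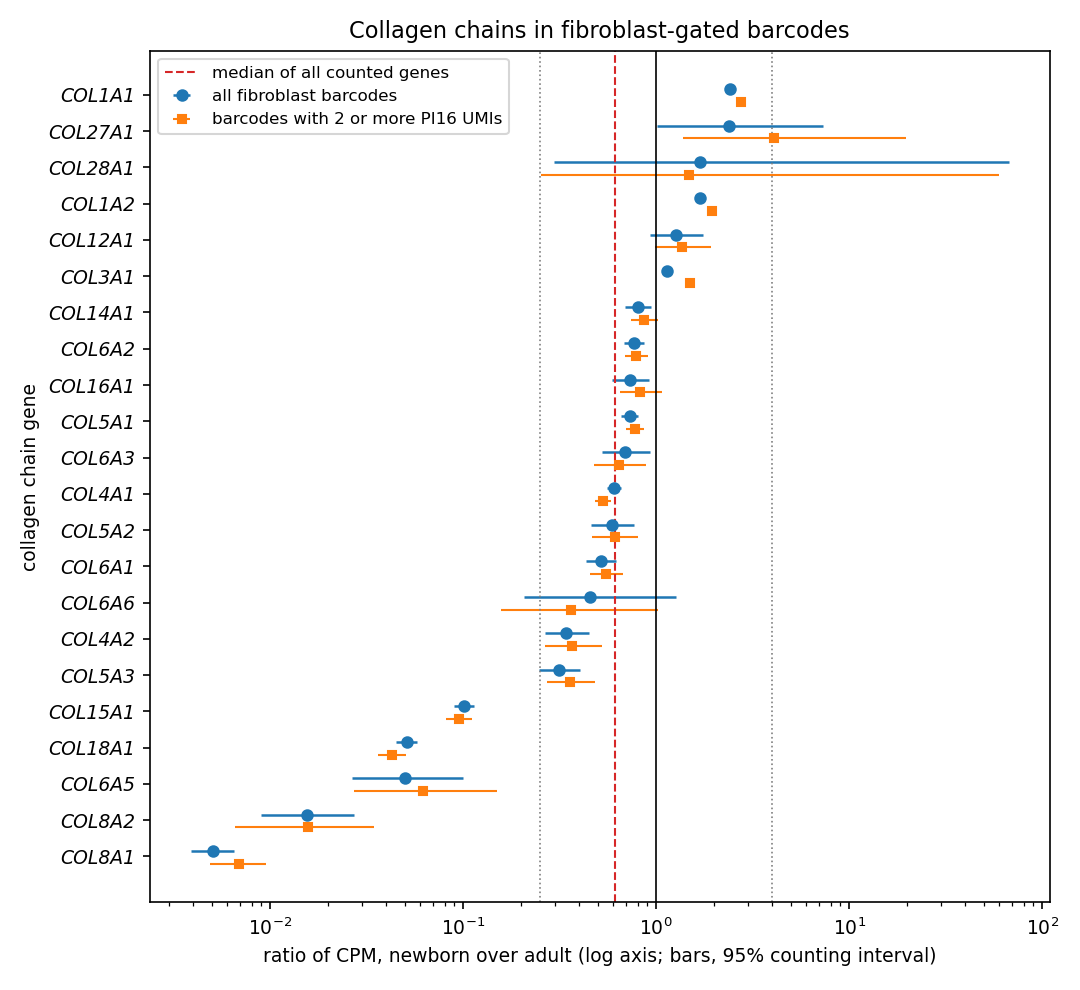
Ratio of newborn over adult level in fibroblast-gated barcodes (horizontal log axis) for each compared chain, with 95% counting intervals as bars. COL8A1, COL8A2, COL6A5, COL18A1 and COL15A1 lie past 4-fold on the adult side, and COL1A1 and COL27A1 are the only chains past 2-fold on the newborn side.

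The fibrillar chains form the bulk of stromal collagen in both libraries. Their 10 members together stood at 17002 CPM in newborn fibroblasts and 10349 CPM in adult fibroblasts, 92.8% and 77.1% of all collagen UMIs of the gate. COL1A1 and COL1A2 encode the chains of type I collagen, and COL3A1 that of type III, the finer fibres of loose stroma. These chains alone made up 90.1% of newborn collagen UMIs (90.0 to 90.2) and 71.7% of adult ones (70.7 to 72.5).

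COL1A1 (ENSBTAG00000013103) stood at 6835 CPM in newborn and 2841 CPM in adult fibroblasts, a ratio of 2.41 (2.30 to 2.51). COL1A2 stood at 6074 and 3623 CPM, a ratio of 1.68 (1.61 to 1.74). COL3A1 (ENSBTAG00000021466) was nearly level by UMI totals, at 3596 and 3150 CPM, with a ratio of 1.14 (1.1 to 1.19). It turned slightly to the adult side when barcodes were weighted equally or the deepest were left out. It moved further to the newborn side with 1 UMI of DCN or LUM (log2 0.74) and with barcodes of 2 lineages kept (0.83). Under the median-ratio scaling the log2 ratios were 1.97 for COL1A1, 1.45 for COL1A2 and 0.90 for COL3A1, all further toward the newborn. The RNA ratio of COL1A1 to COL3A1 differed: 1.90 COL1A1 UMIs per COL3A1 UMI in newborn fibroblasts (1.89 to 1.91) against 0.902 in adult fibroblasts (0.85 to 0.957). Most barcodes of the gate carried these chains at either stage. In barcodes thinned to 1000 UMIs, COL1A1 was seen in 89.5% of newborn and 78.5% of adult barcodes (98.2% and 90.5% unthinned), and COL3A1 in 77.3% and 77.9%. T and NK cells, which should lack COL1A1, showed it in 19.6% of thinned newborn barcodes and 0.372% of adult ones. The medians behind these were 5101 UMIs per newborn and 2748 per adult fibroblast barcode, and 5136 and 2888 in T and NK cells.

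Type V chains, which are built into type I fibrils and set their diameter, lay toward the adult. COL5A1 stood at 398.9 CPM in newborn and 548.9 CPM in adult fibroblasts, 1.38-fold higher in the adult (1.24 to 1.52) by UMI totals but on the newborn side under the median-ratio scaling. COL5A2 stood at 49.5 and 84.0 CPM, a difference that is also near 0 under that scaling (log2 −0.06). COL5A3 stood at 29.6 and 94.9 CPM, 3.20-fold higher in the adult (2.48 to 4.07). The RNA ratio of these chains therefore differed, with 13.5 COL5A1 UMIs per COL5A3 UMI in the newborn and 5.79 in the adult. The make-up of type V molecules was not measured.

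COL27A1, a fibrillar chain of cartilage and developing tissue that lies under the levels for which chains are described here and was picked after its values were seen, had 16.1 CPM among newborn fibroblasts (846 UMIs) and 6.78 CPM among adult ones (5 UMIs), a ratio of 2.37 (1.01 to 7.33). COL11A1, chosen in the same way, had 146 UMIs in newborn and 0 in adult fibroblasts. A count of 0 in the adult allows up to 4.07 CPM, above the newborn level of 2.78 CPM, so no direction can be read.

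Fibril-associated chains were among the most even by UMI totals. COL12A1, which coats type I fibrils, reached 71.7 CPM among newborn and 56.9 CPM among adult fibroblasts, a ratio of 1.26 whose interval spans 1 (0.929 to 1.75). Its log2 ratio was 1.04 under the median-ratio scaling, past 2-fold toward the newborn, and −0.30 by the mean of per-barcode CPM. COL14A1, a related chain of fibril surfaces, stood at 182.3 and 227.7 CPM. COL16A1 stood at 84.5 and 115.2 CPM. Both differences are under 1.4-fold toward the adult and turn to the newborn side under the median-ratio scaling.

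The basement membrane chains COL4A1 and COL4A2, which twist together in the common type IV molecule, lay toward adult fibroblasts by UMI totals. COL4A1 (ENSBTAG00000012849) stood at 741.4 CPM in the adult and 446.3 CPM in the newborn, a difference of 1.66-fold (1.52 to 1.81) that is close to the shift of all genes and vanishes under the median-ratio scaling (log2 −0.02). COL4A2 stood at 84.0 and 28.7 CPM, 2.93-fold (2.24 to 3.78), and kept its direction under that scaling (log2 −0.84). Per UMI of COL1A1 there were 0.261 UMIs of COL4A1 in adult and 0.0653 in newborn fibroblasts. In thinned barcodes COL4A1 was seen in 50% of adult and 35.5% of newborn fibroblasts, against 0.489% of adult T and NK cells (64.2% and 79.6% of fibroblasts unthinned, where newborn barcodes are deeper).

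The short-chain network showed the widest gap between the libraries. COL8A1 and COL8A2 encode type VIII collagen, best known from the membrane under corneal endothelium and from vessel walls. COL8A1 (ENSBTAG00000013662) stood at 309 CPM in adult fibroblasts (228 UMIs) and 1.56 CPM in newborn fibroblasts (82 UMIs), 198-fold apart (153 to 258). COL8A2 (ENSBTAG00000010175) stood at 36.6 CPM (27 UMIs) and 0.571 CPM (30 UMIs), 64.1-fold apart (36.7 to 112). The adult COL8A1 UMIs came from 52 of the 190 barcodes, and the highest barcode held 23 of them, or 10.1%. After thinning, COL8A1 was seen in 15.1% of adult fibroblast barcodes (10.1 to 21.4), 0.0849% of newborn ones and 0.0783% of adult T and NK cells. Unthinned, these shares were 27.4%, 0.633% and 0.249%.

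The multiplexins COL15A1 and COL18A1, proteoglycans of basement membrane zones whose ends can be released as fragments (endostatin in the case of COL18A1), were also higher in the adult. COL18A1 (ENSBTAG00000023907) stood at 425.6 CPM in adult and 21.7 CPM in newborn fibroblasts, 19.6-fold apart (17.3 to 22.3). COL15A1 (ENSBTAG00000010082) stood at 414.7 and 41.9 CPM, 9.89-fold apart (8.75 to 11.2). Both were widespread in the adult gate, with COL18A1 in 110 and COL15A1 in 111 of the 190 barcodes. Thinned shares for COL18A1 were 30.8% of adult fibroblasts, 2.31% of newborn fibroblasts and 1.14% of adult T and NK cells, and unthinned shares 57.9%, 9.65% and 3.14%.

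Endothelial cells also carry several of these chains, so the fibroblast values were read again in barcodes without a single endothelial or lymphatic marker UMI (135 adult, 9379 newborn). COL8A1 was 290.6 CPM in adult and 1.57 CPM in newborn barcodes. COL15A1 was 476.8 and 42.4 CPM, and COL18A1 478.9 and 21.7 CPM. In the whole gate the adult values were 309, 414.7 and 425.6 CPM in the same order. COL8A2, COL6A5 and COL4A1 stood at 36.8, 26.6 and 845.2 CPM in these adult barcodes.

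Beaded-filament chains of type VI collagen, which links cells to the fibrillar matrix, lay toward the adult by UMI totals, COL6A5 by the most. COL6A1 stood at 178.9 CPM in adult and 92.2 CPM in newborn fibroblasts, 1.94-fold higher in the adult (1.62 to 2.31). COL6A2 stood at 376.8 and 288.7 CPM, and COL6A3 at 70.5 and 48.8 CPM, both under 1.5-fold and on the newborn side under the median-ratio scaling. COL6A5 (ENSBTAG00000049122), an alternative partner of COL6A1 and COL6A2, stood at 17.6 CPM in adult and 0.875 CPM in newborn fibroblasts, 20.1-fold apart (9.98 to 37.9). That value rests on 13 adult UMIs in 11 barcodes. COL6A6, another alternative partner, named after its values were seen, stood at 8.13 and 3.71 CPM, 2.19-fold apart, with an interval that spans 1 (0.795 to 4.86-fold toward the adult).

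The remaining chains were rare in fibroblasts. COL28A1, named after its values were seen, had 120 newborn UMIs and 1 adult UMI, a ratio of 1.68 (0.297 to 67.1). COL7A1, the anchoring fibril chain, likewise named after seeing values, had 66 newborn UMIs and 0 in the adult. The 3 transmembrane chains COL13A1, COL17A1 and COL23A1 had 6 UMIs between them in newborn and 2 in adult fibroblasts. Those 3, COL7A1 and COL11A1 are among the 17 chains not compared, with COL2A1, COL4A3, COL4A4, COL4A5, COL4A6, COL9A1, COL9A2, COL9A3, COL10A1, COL11A2, COL20A1 and COL26A1. None of the 17 exceeded 2.78 CPM in newborn or 1.36 CPM in adult fibroblasts, both under the adult floor of 4.07 CPM.

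Marker states within the fibroblast gate differed between the libraries. PTX3, a secreted protein of inflammation and matrix, had 2 or more UMIs in 95.4% of newborn and 12.1% of adult barcodes and stood at 18224 and 632.9 CPM. PI16, a marker of adventitial progenitor-like fibroblasts, had 2 or more UMIs in 75.8% of adult and 28.7% of newborn barcodes. POSTN, an extracellular matrix gene of activated fibroblasts, had 3 UMIs in the adult gate and 3794 in the newborn gate, with 8.28% of newborn barcodes at 2 or more. The stage comparison was therefore repeated in PI16 barcodes alone (144 adult, 2771 newborn). COL1A1 was 2.74-fold higher in the newborn there. COL8A1 was 146-fold higher in the adult (105 to 205), COL18A1 23.3-fold (19.7 to 27.5) and COL15A1 10.5-fold. These barcodes were not matched for PTX3, which had 2 or more UMIs in 96.5% of the newborn PI16 barcodes. COL27A1 passed 4-fold toward the newborn, 4.05 (1.38 to 19.8), on 3 adult UMIs.

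Within the newborn fibroblasts, marker states carried different collagen mixes. PI16 barcodes held 2.20% collagen against 1.58% in barcodes with 0 PI16 UMIs. COL1A1, COL1A2 and COL3A1 were 1.39, 1.45 and 1.54-fold higher in them. COL4A1 stood at 0.692 times and COL15A1 at 0.625 times the level of the barcodes without PI16, the opposite direction to COL1A1, COL1A2 and COL3A1. Not all fibrillar chains rose: COL5A3 had a ratio of 1.08 whose interval spans 1 (0.969 to 1.21). PI16 barcodes were deeper, with a median of 6038 UMIs against 4682.5, and after thinning the ratios were 1.37 for COL1A1, 0.654 for COL4A1 and 0.561 for COL15A1.

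Barcodes with 2 or more UMIs of PPARG, the master regulator of fat cell formation, showed the most different mix. There were 39 of them, with 0.760% collagen against 1.88% in barcodes without PPARG. COL1A1, COL1A2 and COL3A1 stood at 0.346, 0.334 and 0.350 times the level elsewhere. COL4A1 was 1.83-fold higher (1.61 to 2.06) and COL4A2 2.10-fold higher (1.26 to 3.30). Median depth was 6307 UMIs against 5079, and after thinning COL1A1 stood at 0.318 times and COL4A1 at 1.42 times.

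Barcodes with 2 or more UMIs of CNN1 and DES together, both genes of contractile cells, numbered 146 and held 2.55% collagen against 1.79%. COL27A1 was 5.78-fold higher in them (4.57 to 7.23). COL11A1 was 5.52-fold higher on 14 UMIs, COL14A1 2.49-fold and COL12A1 1.77-fold higher, while COL4A1 stood at 0.692 times. Of these barcodes, 69 (47.3%) also met the PI16 mark, and their median depth was 7030.5 UMIs against 5064. Thinned, the ratio of COL27A1 was 9.16 and that of COL4A1 0.546. Thinned ratios have no interval here and rest on fewer UMIs. That of COL4A2, on 22 UMIs before thinning, moved from 0.655 to 1.64.

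In the 798 POSTN barcodes COL1A1 was 1.11-fold and COL5A3 1.34-fold higher. COL15A1 stood at 0.726 times, COL28A1 at 0.324 times (0.103 to 0.780, on 5 UMIs), and COL6A6 was 1.80-fold higher (1.21 to 2.64), or 1.06 after thinning. The 9197 PTX3 barcodes held 1.81% collagen against 2.03% in 111 barcodes without PTX3. COL1A1 stood at 0.878 times there, COL14A1 at 0.611 times (0.507 to 0.744) and COL4A1 at 0.935 times (0.807 to 1.09). PTX3 barcodes were deeper, with a median of 5179 UMIs against 3294. After thinning the ratios were 0.913 for COL1A1, 0.534 for COL14A1 and 1.04 for COL4A1.

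**Figure D3:**
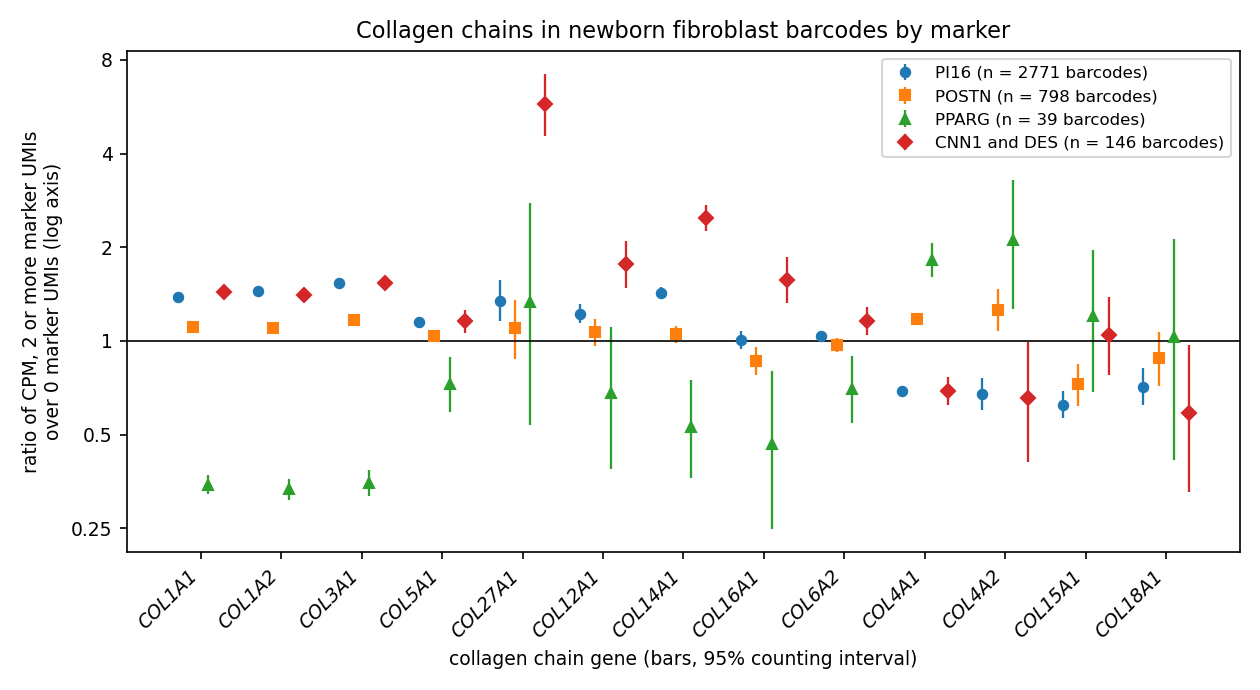
Ratio of collagen chain level (vertical log axis) in newborn fibroblast barcodes with 2 or more UMIs of a marker over those with 0, with 95% counting intervals as bars. COL1A1, COL1A2 and COL3A1 lie at 0.346, 0.334 and 0.350 and COL4A1 at 1.83 in PPARG barcodes, and COL27A1 lies at 5.78 in barcodes marked by CNN1 and DES.

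Across single fibroblast barcodes thinned to 1000 UMIs, the type I chains went together. Pearson's r of COL1A1 with COL1A2 on the log scale was 0.64 over 172 adult and 0.79 over 9428 newborn barcodes, and of COL1A1 with COL3A1 0.57 and 0.70. COL3A1 with COL4A1 gave 0.47 in the adult and 0.00 in the newborn. All points of a library share its capture and free RNA, and these values are descriptions only.

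Endothelial barcodes carried a mix of chains unlike that of fibroblasts, but its chains were not particular to them. In the adult, COL4A1, COL5A1, COL8A1, COL15A1 and COL18A1 were higher in fibroblasts than in lymphatic barcodes. Lymphatic barcodes were endothelial ones with at least 2 UMIs of MMRN1, PROX1 and LYVE1 (1928 adult, 55 newborn), and blood vascular ones had none (94 adult). COL4A1 led in all of them, at 346 CPM in adult lymphatic, 236.7 CPM in adult blood vascular and 340.6 CPM in newborn lymphatic barcodes. COL4A1 was 1.46-fold higher in lymphatic than in blood vascular adult barcodes (1.22 to 1.77). COL18A1 was near level, at 140.1, 138.4 and 144.9 CPM. By UMI totals, COL4A1 and COL18A1 differed little between the stages here. The newborn over adult lymphatic ratio was 0.985 (0.822 to 1.17) for COL4A1 and 1.03 for COL18A1, against 0.602 and 0.0509 in fibroblasts. COL4A2 was 4.13-fold higher in adult lymphatic barcodes (1.60 to 15.2), on 4 newborn UMIs. No median-ratio scaling is given for the lymphatic gate.

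COL5A1 and COL5A3 were higher in lymphatic barcodes. COL5A3 stood at 134.7 CPM in adult lymphatic and 8.02 CPM in blood vascular barcodes, 16.8-fold apart (6.54 to 61.7), and COL5A1 at 69.0 and 10.0 CPM, 6.88-fold apart (2.93 to 21.3). COL5A2, with 3 blood vascular UMIs, gave a ratio of 1.93 whose interval spans 1 (0.645 to 9.48). In newborn lymphatic barcodes they stood at 160.2 and 78.8 CPM. COL5A3 exceeded COL5A1 in lymphatic barcodes, with 0.512 COL5A1 UMIs per COL5A3 UMI in the adult (0.468 to 0.560) and 0.492 in the newborn (0.309 to 0.768), against the reverse order in fibroblasts. Adult lymphatic barcodes held 64.5% of all adult COL5A3 UMIs and 60.1% of those of COL8A2.

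COL8A1 and COL15A1 were higher in blood vascular than in lymphatic adult barcodes. COL8A1 stood at 150.5 CPM in blood vascular and 32.2 CPM in lymphatic adult barcodes, 4.68-fold apart (3.59 to 6.02). COL15A1 stood at 108.3 and 24.4 CPM, 4.45-fold apart (3.25 to 5.98). COL8A2, which pairs with COL8A1, had 32.1 and 36.5 CPM, with an interval of the lymphatic over blood vascular ratio that spans 1 (0.692 to 2.01). In newborn lymphatic barcodes COL15A1 stood at 157.6 CPM, 6.47-fold above the adult lymphatic level (4.82 to 8.57), the opposite order to fibroblasts. COL8A1 had 2 UMIs there, or 5.08 CPM, 6.33-fold under the adult lymphatic level with a wide interval (1.74 to 52.5).

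**Figure D4:**
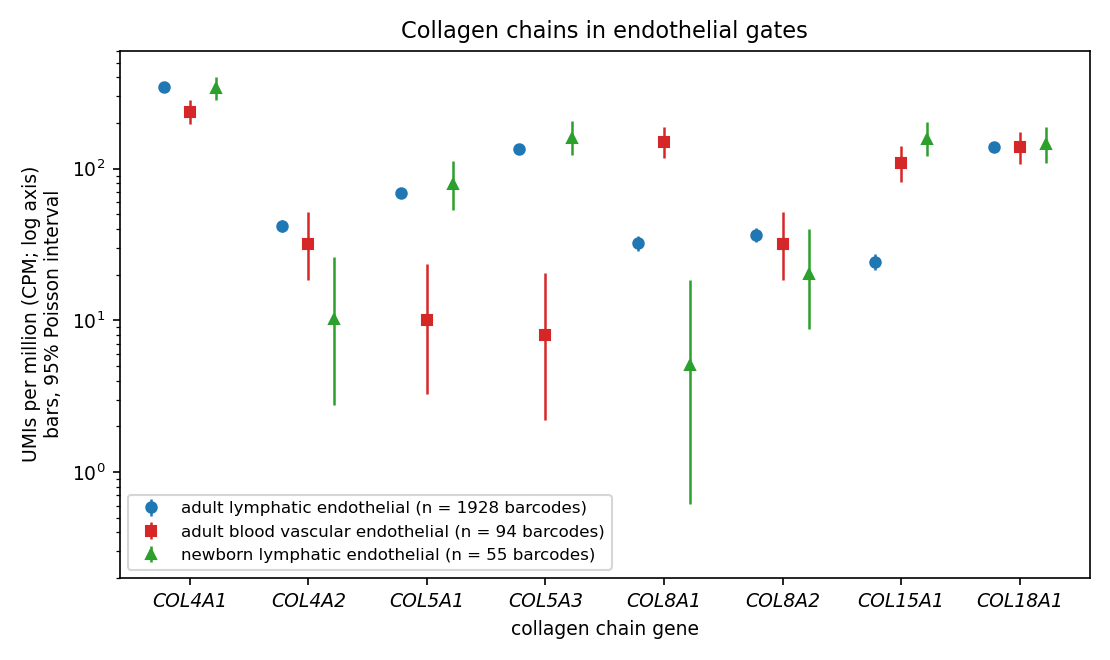
Level of 8 collagen chains (vertical log axis, CPM) in adult lymphatic, adult blood vascular and newborn lymphatic barcodes, with 95% Poisson intervals as bars. COL5A1 and COL5A3 are high in both lymphatic gates, COL8A1 is highest in blood vascular barcodes, and COL4A1 and COL18A1 are close in all 3.

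Set against fibroblasts of the same library, the lymphatic barcodes exceeded them in few chains. In the adult, COL5A3 in fibroblasts was 0.704 times the lymphatic level and COL8A2 was even at 1.00 (0.651 to 1.48), while COL4A1, COL18A1, COL8A1 and COL15A1 were 2.14, 3.04, 9.61 and 17.0-fold higher in fibroblasts. In the newborn the order turned for the multiplexins: COL18A1 was 6.69-fold (5.03 to 8.73) and COL15A1 3.76-fold higher in lymphatic barcodes than in fibroblasts. COL5A3 was 5.41-fold higher there, and COL8A2 35.6-fold (14.1 to 79.6) on 8 lymphatic UMIs.

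Chains were sparse in the adult epithelium. They took 0.00245% of UMIs in 430 milk-secreting barcodes, which carry XDH and BTN1A1, and 0.0136% in 94 basal barcodes, against 0.00453% in T and NK cells. Milk protein genes stood at 612412 CPM in the milk-secreting gate and fill much of its denominator. Per barcode the order was the other way, with 0.916 collagen UMIs in milk-secreting barcodes (median 24990.5 UMIs) and 0.1502 in T and NK barcodes (median 2888). Among basal barcodes COL17A1, the hemidesmosome chain that anchors basal cells to the basement membrane, stood at 34.3 CPM (26.3 to 44.1), and it was described after its values were seen. All 61 of its UMIs there lay in the 21 barcodes that also had 2 or more UMIs of the smooth muscle genes ACTA2 and MYH11, at 244.5 CPM. The other 73 barcodes, most of the gate, had 0 (up to 2.42 CPM). The gate is named by 4 basal markers, at 1972 CPM against 524.2 CPM in epithelial barcodes with fewer than 3 UMIs of XDH and BTN1A1 (other epithelial). The 6 epithelial markers stood at 15692 and 13441 CPM, and whether the 73 are basal cells was not tested. In those 21 barcodes COL18A1 stood at 112.2, COL12A1 at 40.1 and COL4A1 at 32.1 CPM.

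COL9A1, a fibril-associated chain of cartilage also picked after seeing its values, had 102 adult UMIs, 58 of them (56.9%) in milk-secreting barcodes at 3.60 CPM, and 0 in the newborn library. COL5A1 stood at 6.03 CPM in milk-secreting barcodes and 4.96 CPM in T and NK cells, but at 0.226 against 0.0164 UMIs per barcode, and with 24.2 COL5A1 UMIs per COL1A1 UMI (9.17 to 90.8) against 1.19. COL18A1 stood at 4.54 against 10.15 CPM, and at 0.170 against 0.0337 UMIs per barcode, so its order also depends on the denominator. COL4A5, a type IV chain of some specialised basement membranes, and COL27A1, both also named after their values were seen, had 103 and 150 adult UMIs over all barcodes.

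Collagen RNA was also counted in newborn barcodes of lineages that should lack it. COL1A1 stood at 258.9 CPM in 56 newborn T and NK barcodes and 1071 CPM in 413 mast cell barcodes, where DCN and LUM together stood at 1732 CPM. In barcodes with 0 UMIs of DCN and LUM, COL1A1 stood at 196.6 and 238.2 CPM. Whether these UMIs come from free RNA, from doublets with fibroblasts or from the cells themselves was not tested. Ratios between chains are given as values only. COL1A1 per COL3A1 was 2.08 (1.40 to 3.13) in T and NK cells and 1.94 in mast cells, near the fibroblast value of 1.90. Not every pair was as close. In mast cells COL1A2 per COL1A1 was 1.05 (0.946 to 1.16) against 0.889 in fibroblasts, and COL5A1 per COL1A1 0.106 (0.0823 to 0.134) against 0.0584. COL4A1 per COL1A1 was 0.16 (0.082 to 0.290) in T and NK cells and 0.0835 (0.0630 to 0.109) in mast cells, against 0.0653. T and NK intervals of COL1A2 and COL5A1 per COL1A1 held the fibroblast value. Mast cell barcodes with 0 UMIs of DCN and LUM had 58 COL1A1, 100 COL1A2 and 67 COL3A1 UMIs. In newborn lymphatic barcodes COL1A1 per COL3A1 was 0.804 (0.520 to 1.24), and COL4A1 per COL1A1 was 3.27 (2.29 to 4.76) against 0.0653 in fibroblasts. COL1A2 per COL1A1 was 2.34 there (1.61 to 3.46) against 0.889 in fibroblasts. Lymphatic COL1A1 stood at 104.2 CPM, under the T and NK level.

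**Figure D5:**
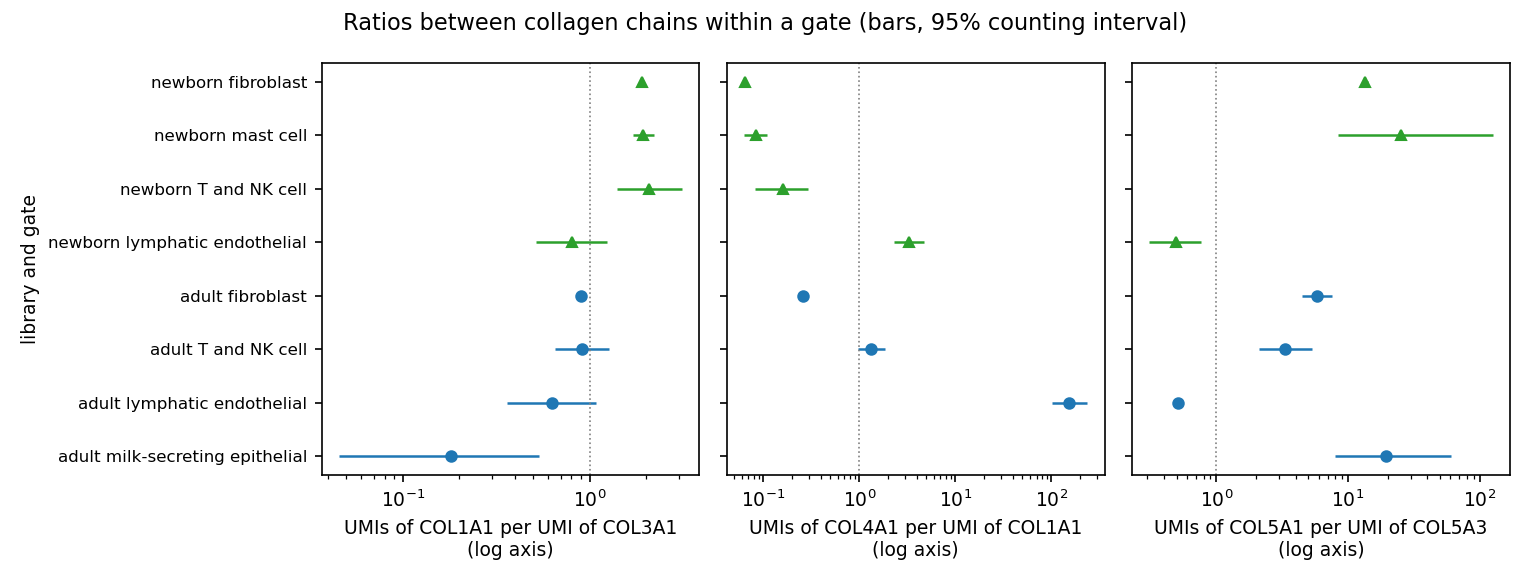
Count ratio of 3 pairs of collagen chains (horizontal log axes) by library and marker gate (vertical axis), with 95% counting intervals as bars. Newborn T and NK and mast cell barcodes lie near the newborn fibroblast ratio of 1.90 for COL1A1 over COL3A1, and newborn lymphatic barcodes lie apart at 0.804.

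Several chains are neighbours in the genome, which the RefSeq gene table of assembly ARS-UCD2.0 gives as 6 pairs among the chains studied: COL4A1 and COL4A2, COL4A3 and COL4A4, COL4A5 and COL4A6, COL3A1 and COL5A2, COL6A1 and COL6A2, and COL6A5 and COL6A6. Neighbours did not keep 1 ratio of counts. COL3A1 per COL5A2 was 72.6 in newborn fibroblasts, 37.5 in adult fibroblasts and 0.311 in adult lymphatic barcodes. COL4A1 per COL4A2 was closer over adult gates, at 8.82 in fibroblasts, 8.25 in lymphatic and 7.38 in blood vascular barcodes, but 15.6 in newborn fibroblasts. COL6A2 per COL6A1 was 2.11 for adult and 3.13 for newborn fibroblasts.

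Collagens need enzymes for hydroxylation, folding and export. Of 21 listed folding genes, 20 were counted in fibroblasts. None was 2-fold higher in the newborn (7.63% of all genes), 7 were 2-fold higher in the adult (38.5% of all genes), which is near the background, and 13 lay between, with a median log2 ratio of −0.84, which is −0.13 relative to all genes. The largest adult differences were in P4HA3, a prolyl hydroxylase subunit (9.60-fold), P3H4 (3.37-fold) and COLGALT1, which adds galactose to collagen (3.28-fold). The collagen chaperone SERPINH1 was 1.26-fold higher in the newborn. The prolyl hydroxylase subunit P4HA1 had a ratio of 1.14 whose interval spans 1 (0.833 to 1.59), and PPIB was level at 1.00.

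Of 15 genes for processing and cross-linking, 11 were counted, 1 past 2-fold toward the newborn and 2 toward the adult, against the same backgrounds of 7.63% and 38.5%. LOXL2, a lysyl oxidase, was 9.33-fold higher in the newborn on 1 adult UMI. LOXL1 was 6.07-fold higher in the adult. LOXL3 was 2.10-fold toward the adult on 6 adult UMIs, with an interval that spans 1 (0.760 to 4.64). The other 8 genes lay between, and the median over the 11 was −0.38, or 0.33 relative to all genes. SPARC, a collagen-binding protein, was 1.55-fold and the procollagen proteinase BMP1 1.38-fold higher in the newborn, and PCOLCE2 1.85-fold higher in the adult.

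Of the 9 collagen receptors counted of 10, ITGA2 was 12.1-fold higher in the newborn on 1 adult UMI and 5 were 2-fold higher in the adult, where 38.5% of all genes were, with a median of −0.30 relative to all genes. ITGA1, an integrin subunit for collagen, was 13.6-fold (3.39 to 40.2, on 4 adult UMIs or 5.42 CPM, under its adult T and NK level), MRC2, which takes up collagen, 5.72-fold and the kinase DDR2 3.20-fold higher in the adult. CD44 was 1.45-fold higher in the newborn. Receptor levels differed between adult cell types. DDR1 stood at 123.8 CPM in basal and 95.4 CPM in other epithelial barcodes, and DDR2 at 58.3 and MRC2 at 498.8 CPM in fibroblasts. ITGA1 stood at 40.8 CPM in endothelial and 16.1 CPM in T and NK barcodes. ITGA2 stood at 49.0 CPM in basal, 39.6 CPM in other epithelial and 30.8 CPM in mast cell barcodes, so neither DDR1 nor ITGA2 was particular to the basal gate.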

How the data were processed

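The authors deposited UMI count matrices, genes by barcodes, for both libraries, for which the submitters' processing notes name Cell Ranger 3.1.0. For the genome build and annotation: not given in the sources used here. Summed depth was 85388618 adult and 65597671 newborn UMIs, with medians of 2723 and 4581 per barcode.

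Barcodes needed at least 300 genes and at most 20% mitochondrial UMIs. A lineage gate needed 2 different markers and 3 UMIs of its list; fibroblasts needed DCN and LUM. No doublet caller was run. Chains were compared with at least 20 UMIs over both libraries, with 3 UMIs standing for a 0. Intervals are exact Poisson, exact binomial or conditional binomial. Thinning drew 1000 UMIs per barcode. No test was possible with 1 library per stage.

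Chains were described with values where they reached 50 CPM with at least 20 UMIs in a gate of at least 50 barcodes, or differed 4-fold between stages. Of the folding, processing and receptor lists, the 3 largest ratios in each direction were named. Members, markers and lists were chosen with earlier results of these data known. The fold rule was checked on simulated counts, only for genes with at least 20 expected adult UMIs. Genes expected below that count were outside the check. Alternatives were other gates, filters, scalings and thinning depths; the gate without endothelial UMIs, the PI16 gate, the ACTA2 and MYH11 barcodes, the 50 CPM minimum, the gates with 0 DCN and LUM UMIs and the 20-barcode minimum for marker states were chosen after seeing the data. Python 3.11.15, numpy 2.4.6, scipy 1.17.1, pandas 2.3.3 and matplotlib 3.10.9 were used.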

Additional observations from a re-analysis of the deposited data

How the results depend on the processing

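The 5 chains at least 4-fold higher in adult fibroblasts were called under each of the 13 alternatives. Their number was 9 with no minimum of UMIs and 6 by the mean of per-barcode CPM, which adds COL4A2. COL27A1 was the 1 chain past 4-fold toward the newborn in PI16 barcodes. The adult collagen share was 0.904% with 1 UMI of DCN or LUM, 0.825% with barcodes of 2 lineages kept, 1.62% by mean CPM, 1.44% without milk and mitochondrial genes, 1.62% without the top 10% of barcodes by UMIs and 1.41% without endothelial UMIs. In the newborn it was 1.84% with 10 UMIs of DCN and LUM, 1.806% with 1 UMI, 1.805% with 2 lineages kept, 2.004% by mean CPM, 1.855% without milk and mitochondrial genes, 1.863% without the top barcodes, 1.756% with the T and NK level subtracted and 2.195% in PI16 barcodes. COL1A1 per COL3A1 in adult fibroblasts was 0.809 by mean CPM, 0.813 without endothelial UMIs and 0.968 in PI16 barcodes. In the newborn it was 1.852 by mean CPM, 1.919 without the top barcodes and 1.785 in PI16 barcodes. COL4A1 per COL1A1 in adult fibroblasts was 0.304 without endothelial UMIs and 0.227 in PI16 barcodes. In the newborn it was 0.06797 by mean CPM, 0.06621 without the top barcodes, 0.06155 with the T and NK level subtracted and 0.04392 in PI16 barcodes. The cause of these shifts was not tested. COL3A1 turned to the adult side by mean CPM (log2 −0.02) and without the top barcodes (−0.12), and COL12A1 by mean CPM (−0.30). COL5A1, COL6A2, COL6A3, COL14A1 and COL16A1 turned to the newborn side with 1 UMI of DCN or LUM, with 2 lineages kept and under the median-ratio scaling. No paired analysis was possible because each stage has 1 library. The adult gate of 737836 UMIs limits any statement on chains under 4.07 CPM.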
